A study of Mus musculus with 8 samples.

Results

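The genes that encode the mTORC1 kinase complex, its lysosomal activators and inhibitors and its energy sensor AMPK were examined for chromatin accessibility in regulatory T (Treg) cells with and without folliculin. The members were 36 genes chosen by name, and a peak of the deposited table belonged to a member when that gene was the nearest RefSeq protein-coding gene within 50000 bp of its span. By this rule 100 of the 57199 peaks were taken, assigned to 34 of the 36 genes. Nprl2 and Stk11 had no assigned peak. In Flcn KO the donor marrow carried Foxp3Cre and Flcn fl/fl, so that Flcn is deleted in cells that have expressed Foxp3, and it was compared with WT. Cells of both groups were CD45.2+, CD45.1-, CD4+ and positive for Foxp3-YFP and came by cell sorting from spleens of mixed marrow chimeras, with 4 libraries each that the labels call biological replicates. The labels give no age, do not name the deleted exons and do not say whether the WT donor also carried Cre. The assay was ATAC-seq, which reads open DNA as the sites where a transposase can insert adapters.

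mTORC1 is a protein kinase complex that promotes growth when amino acids and growth factors are present. Amino acids act through the Rag GTPases, which recruit mTORC1 to the lysosome, where the Ragulator complex anchors them. There GATOR1 restrains the Rags and GATOR2 counteracts GATOR1, and Sestrins and Castors bind GATOR2 when leucine or arginine is scarce. Growth factors act through the TSC complex, which keeps the GTPase Rheb inactive, and AMPK restrains the pathway when energy is low. Folliculin, encoded by Flcn, acts with FNIP proteins on RagC and RagD at the lysosome, and so restrains nuclear entry of TFEB and TFE3, transcription factors of lysosomal genes. In Treg cells, mTORC1 activity is known to support suppressive function.

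The libraries held between 2723344 and 5111728 counts, and both extremes were Flcn KO libraries, replicates 4 and 1. On the first principal component of all peaks (28.5% of the variance) Flcn KO replicate 1 scored 0.42, between the other Flcn KO libraries (38.3 to 90.0) and WT (−61.6 to −26.3). Peaks at Treg marker genes were open in every library: the peaks of 5 of 6 markers summed to 1309 to 1535 CPM (counts scaled to library size) in Flcn KO and 1227 to 1377 in WT. Peaks of 3 of 6 myeloid markers summed to 43.0 to 56.8 CPM in Flcn KO and 55.5 to 71.1 in WT, with none at Lyz2, Csf1r or Adgre1. Peaks of 2 of 4 erythroid markers, Gata1 and Klf1, summed to 39.5 to 57.1 CPM in Flcn KO and 27.8 to 33.9 in WT, with none at the globin genes. The NK markers gave 244 to 328 and 226 to 261 CPM, the CD8 markers 50.1 to 76.6 and 51.9 to 71.7, and 6 of 7 general T cell markers 333 to 418 and 355 to 473, in Flcn KO and WT. In such bulk material a smaller share of cells with an open site and less opening per cell cannot be told apart, and the part of other cell types in the results below was not tested.

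Most promoters of the pathway were in accessible chromatin. RefSeq start sites gave 33 promoter windows for 32 members, each running from 250 bases before to 50 after the start, and 32 of the windows overlapped a peak. The exception was Stk11, which encodes the AMPK-activating kinase LKB1. The share of all RefSeq windows that overlap a peak is not given here, so the member share has no background beside it. The window of Nprl2 was covered by a peak assigned to its neighbour Cyb561d2, and the upstream window of Sesn1 by a peak assigned to Cep57l1. Lamtor3, Wdr24, Seh1l and Eif4ebp1 had no window in the table. The windows had a median GC content of 61.7%, against 52.7% over all 32851 RefSeq windows, and a median of 22 CpG dinucleotides, against 7. The letters CACGTG, an E-box of the kind bound by TFEB, TFE3 and other basic helix-loop-helix factors, occurred in 5 of the 33 member windows (15.2%) and in 7.15% of all windows. The longer form TCACGTGA was in 0 member windows and in 0.974% of all. Searched on both strands, TGTTTAC, the forkhead (FOXO) core, was in 2 member windows (Sesn1 and Stk11; 6.06%, and 3.65% of all). TGATGNAA, a site of the kind bound by ATF4, was in 1 (Lamtor4; 3.03%, and 3.97% of all). CACGTG itself holds a CpG, and windows of like CpG content were not compared. A match is a description of the letters and does not show binding.

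The 5 windows with an E-box are shown because each overlaps a promoter peak of its gene, which allows the letters to be set beside the accessibility measured there. They are RefSeq sequences of GRCm38.p6, the assembly behind mm10, written 5′ to 3′ along the gene, with the E-box in capitals. The Rragc window is chr4:123917183-123917482 (plus strand), Rragb chrX:153139708-153140007 (plus), Rheb chr5:24842312-24842611 (minus), Lamtor1 chr7:101905587-101905886 (plus) and Lamtor4 chr5:138255232-138255531 (plus). The E-boxes begin 112 bases before the start site in Rragc, 127, 36 and 3 before it in Rragb, 96 in Rheb, 68 in Lamtor1 and 120 and 104 in Lamtor4. The Lamtor4 E-boxes lie upstream of its peak, and the others lie within theirs.
Rragc: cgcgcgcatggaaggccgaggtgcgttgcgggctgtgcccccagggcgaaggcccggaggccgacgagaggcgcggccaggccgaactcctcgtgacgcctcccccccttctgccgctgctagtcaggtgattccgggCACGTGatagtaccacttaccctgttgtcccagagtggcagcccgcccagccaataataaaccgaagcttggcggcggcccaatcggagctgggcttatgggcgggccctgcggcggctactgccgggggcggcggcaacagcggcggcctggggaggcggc
Rragb: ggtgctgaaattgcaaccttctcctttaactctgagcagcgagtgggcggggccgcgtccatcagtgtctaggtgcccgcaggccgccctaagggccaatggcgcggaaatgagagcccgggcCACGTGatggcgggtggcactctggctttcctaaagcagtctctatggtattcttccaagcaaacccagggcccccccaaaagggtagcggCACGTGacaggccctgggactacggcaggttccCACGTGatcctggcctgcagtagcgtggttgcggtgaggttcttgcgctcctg
Rheb: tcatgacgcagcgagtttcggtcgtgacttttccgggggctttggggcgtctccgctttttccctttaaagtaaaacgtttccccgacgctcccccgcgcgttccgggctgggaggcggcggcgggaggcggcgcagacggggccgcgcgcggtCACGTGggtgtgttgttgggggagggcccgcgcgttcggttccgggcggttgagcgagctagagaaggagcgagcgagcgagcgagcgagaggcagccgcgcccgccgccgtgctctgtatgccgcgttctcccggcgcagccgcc
Lamtor1: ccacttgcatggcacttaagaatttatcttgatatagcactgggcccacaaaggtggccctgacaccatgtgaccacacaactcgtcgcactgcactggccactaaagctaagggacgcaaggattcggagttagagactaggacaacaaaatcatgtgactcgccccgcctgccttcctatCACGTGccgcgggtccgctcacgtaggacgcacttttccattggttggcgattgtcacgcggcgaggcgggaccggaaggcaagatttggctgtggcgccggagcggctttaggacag
Lamtor4: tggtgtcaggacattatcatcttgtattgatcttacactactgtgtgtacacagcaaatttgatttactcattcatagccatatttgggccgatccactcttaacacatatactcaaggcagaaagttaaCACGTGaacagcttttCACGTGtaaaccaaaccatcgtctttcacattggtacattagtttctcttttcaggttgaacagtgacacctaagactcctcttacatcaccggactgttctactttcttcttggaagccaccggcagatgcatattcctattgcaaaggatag
The promoter peaks at these windows had log2 fold changes, Flcn KO minus WT, of −0.27 (Rragc), −0.05 (Rragb), 0.04 (Rheb), −0.20 (Lamtor1) and −0.11 (Lamtor4), and none passed the test. Their edgeR adjusted p-values were 0.258, 0.930, 0.930, 0.613 and 0.754.

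Accessibility of the pathway's genes was much alike in level in the libraries of both groups. The 100 peaks summed to 2516, 2787, 2652 and 2612 CPM in Flcn KO replicates 1 to 4, against 2739, 2563, 2699 and 2759 CPM in WT. The means were 2642 ± 112 and 2690 ± 88.4 (SD, n = 4 each), and the groups overlapped. A peak near Castor1, which encodes an arginine sensor, was higher in Flcn KO, and a peak upstream of Sesn3, which encodes a stress-induced protein of the Sestrin family, was lower. Of the 100 peaks, 88 passed the filter on low counts and were tested. Of these 1 rose, 1 fell and 86 did not pass an adjusted p of 0.05 (quasi-likelihood test in edgeR, Benjamini-Hochberg over all 47859 tested peaks). Of all tested peaks 2.37% were called, 1.35% higher and 1.02% lower. Unadjusted p was below 0.05 for 4 member peaks that were higher and 6 that were lower, together 11.4% of those tested. Over all tested peaks it was 12.9%, with 6.87% higher and 5.99% lower. The libraries of the groups did not overlap at 3 member peaks, in Castor1, Eif4ebp1 and Sesn1, each higher in Flcn KO; over all tested peaks this held for 7.59%. The median log2 fold change was −0.03, with 38 peaks above 0 and 50 below, beside a median of 0.00 over all tested peaks.

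**Figure D1:**
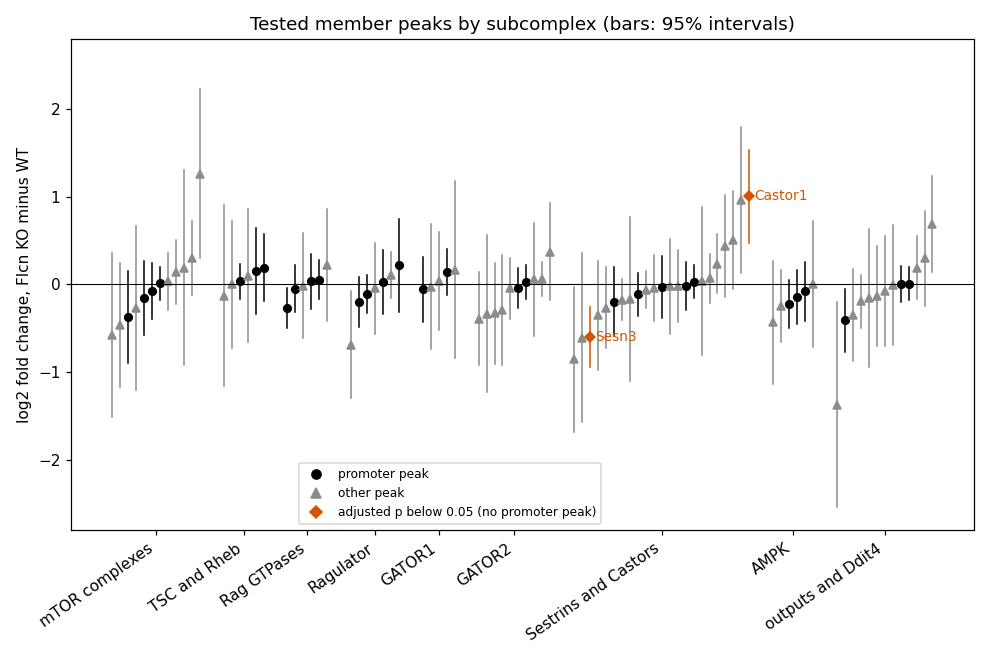
Log2 fold change, Flcn KO minus WT, of the 88 tested member peaks, ordered by value within each subcomplex, with 95% intervals as bars. The 2 peaks past an adjusted p of 0.05, near Castor1 (1.01) and Sesn3 (−0.60), are not promoter peaks, and the 30 promoter peaks lie between −0.41 and 0.22.

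Promoter peaks varied less than the others. All 30 promoter peaks assigned to members were tested, 0 were called by edgeR, and 2 had an unadjusted p below 0.05, in Rragc and Rps6kb1. DESeq2 and limma-voom also called 0, each with 2 at an unadjusted p below 0.05. Over all assigned genes 0.441% of 7938 promoter peaks were called and 7.16% had an unadjusted p below 0.05, beside 2.49% and 13.3% of 35254 other peaks. The 95% interval lay within a 2-fold change in either direction at all 30 member promoter peaks and within 1.5-fold at 25. Among the 58 other tested member peaks this held for 39 and 15. The median absolute log2 change was 0.07 at the promoter peaks and 0.19 at the others, beside 0.12 and 0.24 over all assigned genes. Promoter peaks were also deeper, with a median of 39.1 CPM against 8.38 CPM at the others, and had smaller standard errors (median SE 0.14 and 0.29).

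Per kilobase of peak, the promoter of Sesn3 was the most accessible, at 338 ± 38.3 CPM per kb in Flcn KO and 329 ± 24.2 in WT (SD, n = 4 each). Mtor followed with 269 ± 18.8 and 267 ± 25.4 CPM per kb, then Eif4ebp2 with 250 ± 23.0 and 247 ± 6.20 and Ddit4 with 210 ± 25.7 and 210 ± 12.9, in Flcn KO and WT. At the other end stood Rragd, with a wide peak of 1386 bp, at 23.2 ± 2.95 and 22.7 ± 3.16 CPM per kb, and Mlst8 at 22.9 ± 3.24 and 25.6 ± 4.93. The Mtor and Eif4ebp2 values overlap within their SDs, as do those of Rragd and Mlst8.

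**Figure D2:**
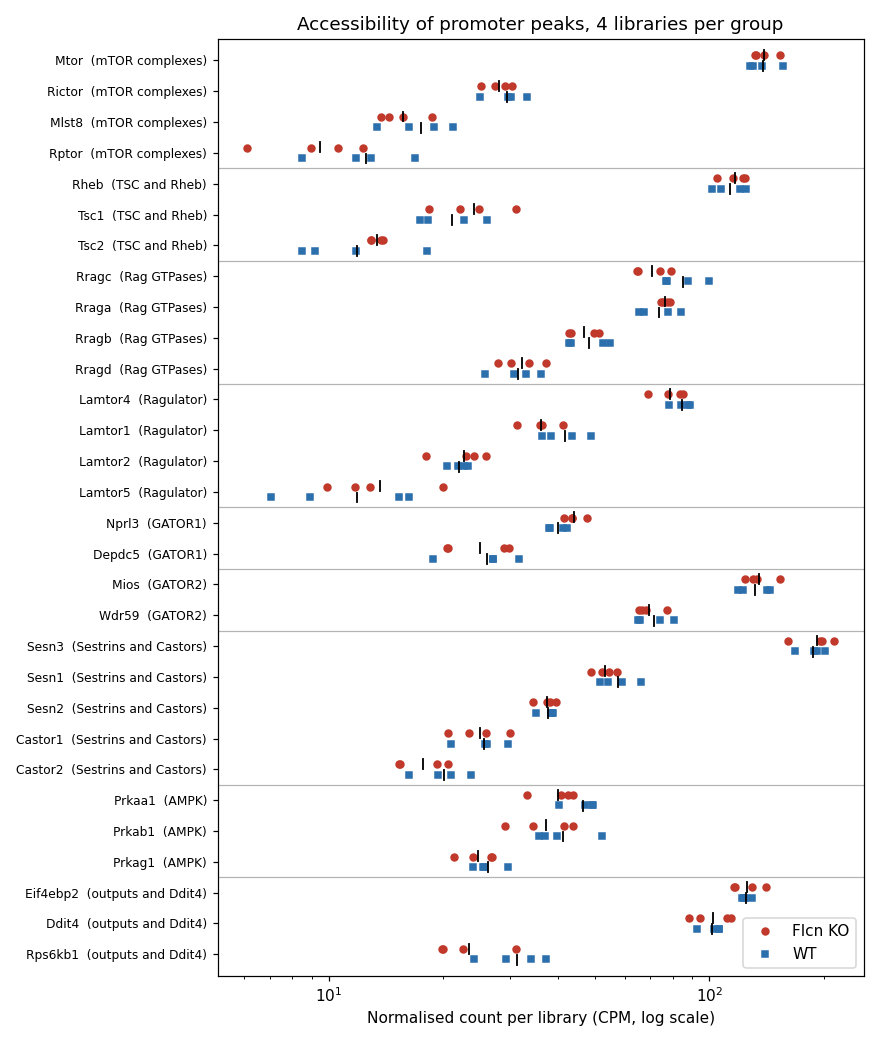
Normalised count (CPM, log scale) of each of the 30 promoter peaks in each library, grouped by subcomplex, with Flcn KO (circles) above WT (squares) and black ticks at the group means. The libraries of the groups overlap in every row, from Rptor near 10 CPM to Sesn3 near 190 CPM.

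Castor1 carried the rise. Its product binds arginine and holds back GATOR2 when arginine is absent. The peak at chr11:4223401-4223794, 992 bp beyond the gene's end and 7894 bp from the next gene, Tbc1d10a, had 12.9, 12.3, 10.4 and 13.0 CPM in Flcn KO replicates 1 to 4, against 5.81, 6.25, 7.14 and 4.92 CPM in WT. Every Flcn KO library was above every WT library. The means were 12.1 ± 1.18 and 6.03 ± 0.923 CPM (SD, n = 4 each), a 2.01-fold difference (log2 fold change 1.01, SE 0.26, 95% interval 0.48 to 1.54, edgeR adjusted p = 0.0274). The raw counts were 66, 46, 42 and 34 in Flcn KO and 28, 28, 28 and 20 in WT. The Castor1 promoter peak, at chr11:4217905-4218415, had 24.9 ± 3.96 CPM in Flcn KO and 25.6 ± 3.50 CPM in WT (log2 fold change −0.03, 95% interval −0.38 to 0.32). A peak inside the gene had a log2 fold change of −0.35 (edgeR adjusted p = 0.708). Leaving out Flcn KO replicate 2 or 4, or one of WT replicates 1, 2 and 4, ended the call of the downstream peak (adjusted p = 0.0642 to 0.0935), with log2 fold changes of 0.92 to 1.02.

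Sesn3 carried the fall, at the peak farthest upstream of its 8. Sestrins bind GATOR2, and Sesn3 is a known target of FOXO factors in other cells. The peak at chr9:14244486-14244965, 31336 bp from the gene and 109025 bp from the next one, Endod1, had 18.4, 24.0, 31.8 and 25.9 CPM in Flcn KO, against 31.1, 41.9, 36.2 and 41.8 CPM in WT. The highest Flcn KO library, replicate 3, lay just above the lowest WT library, replicate 1. The means were 25.04 ± 5.54 and 37.8 ± 5.17 CPM (SD, n = 4 each; log2 fold change −0.60, SE 0.17, 95% interval −0.94 to −0.26, edgeR adjusted p = 0.0436). The next peak along, 13242 bp from the gene, had a log2 fold change of 0.24 (adjusted p = 0.611), and the promoter peak 0.03 (95% interval −0.15 to 0.22). In that promoter peak, at chr9:14275887-14276454, the Flcn KO libraries held 161, 213, 198 and 195 CPM, against 188, 168, 201 and 191 CPM in WT. The call of the upstream peak ended by limma-voom (adjusted p = 0.0504) and when Flcn KO replicate 1, 2 or 4, or one of WT replicates 2, 3 and 4, was left out (0.0709 to 0.169), with log2 fold changes of −0.62 to −0.46.

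**Figure D3:**
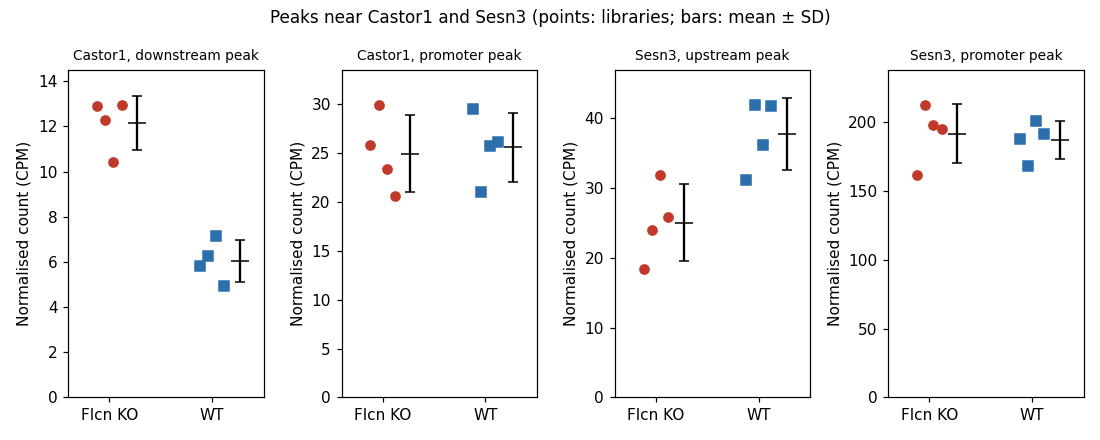
CPM in each library for the called peaks near Castor1 and Sesn3 and for the same genes' promoter peaks, with mean ± SD beside the points and axes from 0. Flcn KO and WT are apart at the Castor1 downstream peak (12.1 and 6.03 CPM), nearly so at the Sesn3 upstream peak (25.04 and 37.8), and overlap at both promoters.

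The other Sestrin and Castor genes had no called peak. Sesn1, with 10 peaks of which 9 were tested, had one inside the gene at chr10:41868002-41868330 with 5.47, 5.34, 3.98 and 5.33 CPM in Flcn KO, against 2.08, 2.68, 4.08 and 1.48 CPM in WT (log2 fold change 0.96, SE 0.41, edgeR adjusted p = 0.280). Only WT replicate 3 reached the Flcn KO range. With 10, 12, 16 and 6 counts in WT, this peak passed the filter on low counts through the Flcn KO libraries. Another, at chr10:41893460-41893979, had 5.08, 2.14, 2.98 and 3.81 CPM in Flcn KO, against 4.15, 12.9, 3.06 and 5.41 in WT (−0.85, SE 0.41, adjusted p = 0.364), where WT replicate 2 stood high. With 26, 8, 12 and 10 counts in Flcn KO, that peak passed the filter through the WT libraries. A peak at chr10:41830914-41831234 had 9.06 CPM on average in Flcn KO and 6.32 in WT without overlap of the libraries (adjusted p = 0.451). The Sesn1 promoter peak had 53.2 ± 3.61 CPM in Flcn KO and 57.7 ± 6.46 CPM in WT. Sesn2, which encodes a leucine sensor, had 37.4 ± 2.18 CPM in Flcn KO and 37.7 ± 1.83 CPM in WT at its promoter, a log2 fold change of −0.02 (95% interval −0.30 to 0.26). The Castor2 promoter had 17.6 ± 2.7 and 20.04 ± 3.10 CPM in Flcn KO and WT. In all, 15 of the 23 tested peaks of these 5 genes had a log2 fold change below 0, with a median of −0.03.

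**Figure D4:**
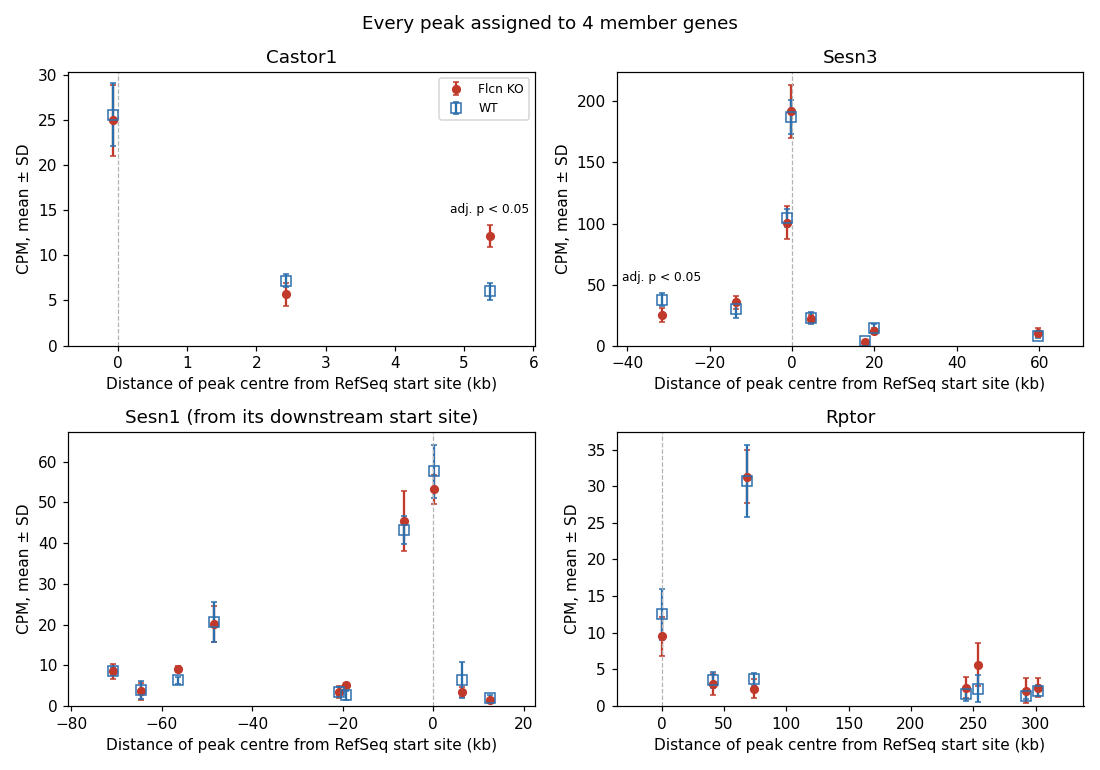
Mean CPM ± SD (n = 4 each) of every peak assigned to Castor1, Sesn3, Sesn1 and Rptor against the distance of the peak centre from the RefSeq start site (kb), Flcn KO as filled circles and WT as open squares. The called peaks have centres at 5372 bp from the Castor1 start and −31576 bp from the Sesn3 start. Their mean ± SD bars are apart in Flcn KO and WT, though single libraries overlap slightly at Sesn3. The bars of the promoter peaks near 0 kb overlap.

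Among Rag GTPase genes, whose products bind mTORC1 as dimers of RagA or RagB with RagC or RagD, 6 of 10 peaks were tested and 0 were called. Rragc, which encodes one of the folliculin substrates, had the largest difference among the tested peaks, at its promoter. The other Rragc peaks were not tested. The Rragc promoter peak, at chr4:123917121-123917639, had 74.1, 79.1, 64.6 and 64.8 CPM in Flcn KO, against 87.6, 76.7, 77.5 and 99.9 CPM in WT. Only Flcn KO replicate 2 reached into the WT range. The means were 70.7 ± 7.16 and 85.4 ± 10.8 CPM (SD, n = 4 each), a log2 fold change of −0.27 (95% interval −0.50 to −0.04, unadjusted p = 0.0208, edgeR adjusted p = 0.258). Rragd, a known TFEB target gene that encodes the other folliculin substrate, had 32.1 ± 4.09 CPM in Flcn KO and 31.4 ± 4.38 CPM in WT at its promoter (95% interval of the log2 fold change −0.28 to 0.35). Rraga had 76.5 ± 1.81 and 73.6 ± 8.81 CPM, and Rragb had 46.7 ± 4.38 and 48.4 ± 6.22 CPM, in Flcn KO and WT.

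The Ragulator genes Lamtor1 to Lamtor5, which encode the lysosomal anchor of the Rags, had 7 peaks, all tested, and 0 were called. The Lamtor4 promoter peak, at chr5:138255474-138255936, was the most accessible, with 68.8, 83.9, 85.0 and 77.7 CPM in Flcn KO, against 78.5, 84.3, 87.7 and 89.1 CPM in WT. These libraries overlapped (log2 fold change −0.11, 95% interval −0.32 to 0.11). A smaller peak inside the gene, at chr5:138257067-138257352, had 9.78, 5.88, 4.97 and 6.86 CPM in Flcn KO, against 17.9, 12.05, 7.14 and 7.38 CPM in WT (−0.69, SE 0.30, edgeR adjusted p = 0.300). WT replicate 1 was the highest there, and Flcn KO replicate 1 lay among the WT values. Lamtor1, whose peak also touches Tomt, had 36.2 ± 4.05 and 41.7 ± 5.60 CPM at its promoter, Lamtor2 had 22.7 ± 3.38 and 22.0 ± 1.23, and Lamtor5 had 13.6 ± 4.37 and 11.9 ± 4.57, in Flcn KO and WT. The Lamtor3 peak, inside the gene, had a log2 fold change of 0.11 (adjusted p = 0.801).

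GATOR1 and GATOR2 genes had 5 and 10 tested peaks, with 0 called in each and 0 at an unadjusted p below 0.05; DESeq2 and limma-voom called 0 among all 65 tested peaks outside the Sestrin and Castor genes. Nprl3, a GATOR1 subunit gene, had 41.5, 47.6, 43.5 and 43.4 CPM at its promoter peak (chr11:32267431-32267859) in Flcn KO, against 37.8, 38.1, 42.3 and 41.3 CPM in WT. WT replicate 3 lay above Flcn KO replicate 1, and the log2 fold change was 0.14 (95% interval −0.12 to 0.41). Depdc5, another GATOR1 subunit gene, had 24.9 ± 5.1 and 26.1 ± 5.34 CPM at its promoter in Flcn KO and WT. The peak over the Nprl2 window, the one assigned to Cyb561d2, had 10.4 ± 3.95 CPM in Flcn KO and 13.5 ± 3.33 CPM in WT (edgeR adjusted p = 0.626). In GATOR2, the Mios promoter peak (chr6:8208957-8209822) had 124, 133, 130 and 153 CPM in Flcn KO, against 123, 119, 142 and 145 CPM in WT. WT replicates 1 and 2 lay below all Flcn KO libraries and Flcn KO replicate 4 above all of WT, with overlap between (log2 fold change 0.03, 95% interval −0.17 to 0.23). Wdr59, another GATOR2 subunit gene, had 69.3 ± 5.58 CPM at its promoter in Flcn KO and 71.4 ± 7.49 CPM in WT. The strongest peak of Seh1l, also a nuclear pore gene, lay inside it and had a log2 fold change of 0.07 (adjusted p = 0.854), and the single Wdr24 peak had −0.29 (adjusted p = 0.774).

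The kinase complexes had 12 tested peaks and 0 calls. Mtor, which encodes the kinase shared by mTORC1 and mTORC2, had 133, 153, 139 and 132 CPM at its promoter peak (chr4:148448200-148448716) in Flcn KO, against 138, 130, 127 and 156 CPM in WT. The libraries overlapped throughout (log2 fold change 0.01, 95% interval −0.18 to 0.20). Rptor, which encodes the mTORC1 scaffold Raptor, had 8 peaks in and near the gene. One of them, at chr11:119856651-119857046, had 9.39, 4.81, 5.97 and 2.29 CPM in Flcn KO, against 4.57, 0.446, 1.53 and 2.95 CPM in WT. Flcn KO replicate 4 fell inside the WT range (1.26, SE 0.47, edgeR adjusted p = 0.190). The Rptor promoter had 9.47 ± 2.63 and 12.5 ± 3.44 CPM, and Rictor, which encodes the scaffold of mTORC2, had 27.9 ± 2.24 and 29.5 ± 3.39, in Flcn KO and WT. Mlst8, which encodes a subunit of both complexes, had 15.6 ± 2.20 CPM in Flcn KO and 17.4 ± 3.36 CPM in WT. At Rheb, the activating GTPase, the peak over the promoter (chr5:24842376-24843055) had 105, 124, 115 and 123 CPM in Flcn KO, against 125, 102, 107 and 121 CPM in WT. Tsc1 and Tsc2, which encode the core of the TSC complex, had log2 fold changes of 0.19 and 0.16 at their promoters (edgeR adjusted p = 0.753 and 0.862). The Tsc2 peak also touches Nthl1.

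AMPK genes had no called peak. None of the 6 tested peaks of Prkaa1, Prkab1 and Prkag1, which encode its catalytic, scaffold and nucleotide-binding subunits, had an unadjusted p below 0.05 by edgeR. The median log2 fold change was −0.18, with 5 of the 6 below 0, beside 4694 of 7938 promoter peaks and 16898 of 35254 other peaks over all assigned genes. The Prkaa1 promoter peak (chr15:5143284-5144253) had 33.2, 40.6, 42.5 and 43.8 CPM in Flcn KO, against 49.0, 40.2, 49.5 and 47.0 CPM in WT (−0.22, 95% interval −0.49 to 0.05, edgeR adjusted p = 0.535). Apart from WT replicate 2, the WT libraries lay above all of Flcn KO. Prkab1 had 37.1 ± 6.79 and 41.2 ± 7.59 CPM at its promoter, and Prkag1, whose peak also touches Kmt2d, had 24.7 ± 2.63 and 26.1 ± 2.36, in Flcn KO and WT. Summed over their 6 peaks the AMPK genes held 131, 147, 144 and 122 CPM in Flcn KO, against 187, 140, 143 and 145 CPM in WT. WT replicate 1 stood high, and the other WT libraries lay within the Flcn KO range.

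The remaining members are mTORC1 substrates and Ddit4, a stress-induced inhibitor also called REDD1. Of their 13 tested peaks 0 were called, and 1 was higher and 2 lower at an unadjusted p below 0.05. Rps6kb1, which encodes the S6 kinase, had 22.5, 31.0, 19.9 and 19.8 CPM at its promoter peak (chr11:86544577-86545182) in Flcn KO, against 29.3, 24.1, 37.2 and 33.9 CPM in WT. Flcn KO replicate 2 lay above WT replicates 1 and 2. The means were 23.3 ± 5.28 and 31.1 ± 5.72 CPM (SD, n = 4 each; log2 fold change −0.41, 95% interval −0.77 to −0.05, edgeR adjusted p = 0.294). The peak also touches Tubd1. A peak 4357 bp from Eif4ebp1, which encodes a translation repressor, at chr8:27280013-27280356, had 10.6, 8.02, 11.4 and 12.2 CPM in Flcn KO, against 6.23, 7.58, 5.35 and 6.89 CPM in WT. The groups did not overlap, and the log2 fold change was 0.68 (SE 0.27, adjusted p = 0.221). Eif4ebp2, its paralogue, had 117, 130, 116 and 141 CPM at its promoter (chr10:61452646-61453149) in Flcn KO, against 124, 123, 129 and 122 CPM in WT, with the WT values inside the Flcn KO range. At Ddit4 the promoter had 102 ± 12.5 CPM in Flcn KO and 102 ± 6.27 CPM in WT. A weak peak 7780 bp from it, at chr10:59959550-59959874, had 4, 12, 2 and 2 counts in Flcn KO, against 8, 14, 20 and 16 in WT (log2 fold change −1.37, SE 0.58, adjusted p = 0.272).

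Castor1 and Sesn3 were not called by sums of all peaks of a gene. The sums had log2 fold changes of 0.16 for Castor1 and −0.02 for Sesn3 (edgeR adjusted p = 0.668 and 0.959). The downstream Castor1 peak had 12.1 and 6.03 CPM, and the Castor1 sum 45.3 and 40.7, in Flcn KO and WT. The upstream Sesn3 peak had 25.04 and 37.8 CPM, and the Sesn3 sum 425 and 429. Each peak is only part of its sum, which can show a change at that peak only in diluted form. Of the 34 members with a peak, 0 were called by edgeR over 13488 tested genes, of which 1.84% were called. At an unadjusted p below 0.05 there were 3 members (Rragc, Rps6kb1 and Eif4ebp1) by edgeR, and DESeq2 and limma-voom each called 0, with 2 at an unadjusted p below 0.05. Over all tested genes 12.7% had an unadjusted p below 0.05. The members ran from −0.39 (Rps6kb1) to 0.28 (Eif4ebp1) on the log2 scale, with 16 above 0 and 18 below and a median of −0.01, beside 0.00 over all tested genes. The Eif4ebp1 sum was 53.6 ± 6.34 CPM in Flcn KO and 43.9 ± 3.76 CPM in WT, and its adjusted p was 0.304.

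The members were set beside a wider list of mTORC1 and AMPK pathway genes that were not members. Among 175 tested peaks of 55 such genes, 4 rose, 1 fell and 170 did not pass, beside 2.37% called over all tested peaks. The higher ones lay inside Fnip2, which encodes a folliculin partner, with 2 peaks, inside Pik3ip1, whose product holds back phosphoinositide signalling upstream of AKT, and inside Prr5l, which encodes a protein that binds mTORC2 (log2 fold change 1.75, SE 0.45, edgeR adjusted p = 0.0234). The Prr5l peak, at chr2:101810932-101811293, had 4.69, 6.15, 3.98 and 8.76 CPM in Flcn KO, against 0.830, 1.56, 2.55 and 1.97 CPM in WT, without overlap. The log2 fold changes were 3.03 at one Fnip2 peak and 1.38 at Pik3ip1, and the other Fnip2 peak had 30, 20, 14 and 18 counts in Flcn KO, against 2, 0, 0 and 1 in WT. That peak and the Prr5l peak, with 4, 7, 10 and 8 counts in WT, passed the filter on low counts through the Flcn KO libraries. So did the Fnip2 peak with the log2 fold change of 3.03, which had 10, 24, 24 and 6 counts in WT. The weaker Fnip2 peak and the Prr5l peak were not tested with the stricter filter or with halved counts. The Prr5l peak was also not called by limma-voom or on leaving out Flcn KO replicate 2 or 4 or either of WT replicates 1 and 2 (adjusted p = 0.0695 to 0.120). A peak 9157 bp from Lpin1, which encodes a phosphatidate phosphatase regulated by mTORC1, fell, with 3.17 ± 1.03 CPM in Flcn KO and 9.44 ± 4.82 CPM in WT (−1.55, SE 0.36, adjusted p = 0.0117). By summed peaks Prr5l (log2 fold change 0.38, adjusted p = 0.0159) and Fnip2 (0.78) were higher, and the Prr5l sum was not called on leaving out Flcn KO replicate 4 (adjusted p = 0.0686) or WT replicate 1 (0.0885). The Lpin1 peak, with 18, 9, 18 and 6 counts in Flcn KO, passed the filter on low counts through the WT libraries. It was not tested with the stricter filter or halved counts. It was also not called by limma-voom or on leaving out Flcn KO replicate 2 or either of WT replicates 1 and 2 (adjusted p = 0.0604 to 0.112).

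**Figure D5:**
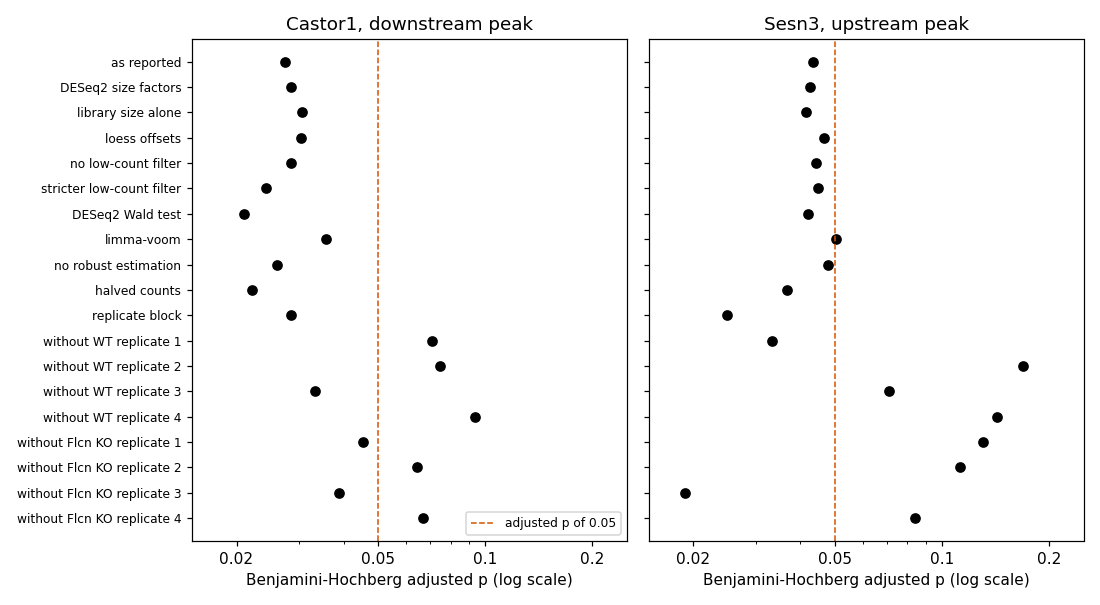
Adjusted p (log scale) of the Castor1 downstream peak and the Sesn3 upstream peak as reported and under the 18 alternative settings, with a dashed line at 0.05. The values of Castor1 run from 0.0209 to 0.0935 and those of Sesn3 from 0.0190 to 0.169 over the alternatives.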

How the data were processed

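The authors deposited raw counts per ATAC-seq peak and library in mm10 coordinates. The submitters' processing notes name MACS2 2.1.1, BWA 0.7.16, bedtools 2.25.0, SAMtools 1.9, Trimmomatic 0.36 and Picard 2.9.4; for the tools' roles, duplicate removal, any read shift for the transposase and pooling for peak calling, nothing is stated in the sources used here. Between 88.7% and 92.7% of the values per library were even, as when each fragment is counted at its 2 ends, and errors rest on the spread between libraries. Starts were converted to count from 1.

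Peaks were assigned to 21883 RefSeq protein-coding genes (GRCm38.p6) by nearest span within 50000 bp, ties going to the nearest gene end. Assignment is by position and does not show regulation, and exons and introns were not distinguished. A promoter peak overlaps a RefSeq window of its gene, from 250 bases before to 50 after the start; these windows were used after the files had been seen. Counts were filtered by filterByExpr (minimum count 10), scaled by TMM and compared, Flcn KO minus WT, by the robust quasi-likelihood test of edgeR 4.0.16 in R 4.3.3, with no covariate. Benjamini-Hochberg adjustment ran over every tested peak, or every gene for sums, with calls at 0.05. The SE comes from the fold change and its F statistic, the 95% interval from the SE, and CPM values use TMM-scaled library sizes. The script was tested on simulated data. Alternatives were DESeq2 1.42.0 (test, size factors), limma 3.58.1 voom, library size alone, loess offsets, no or a stricter filter (minimum count 30), no robust estimation, halved counts, a replicate block, shorter assignment distances and leaving out each library. Peaks are described in full where called, at an unadjusted p below 0.05, or highest in CPM within their subcomplex; a Sesn1 peak without overlap and the wider-list values follow their own counts. Members and lists were chosen with earlier results of these data known. The marker Trac and the context gene Kics2 had no match in the gene table. The B cell markers are not reported here.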

Additional observations from a re-analysis of the deposited data

Results flagged for a closer look

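Among the 38 groups of 4 libraries examined (18 peaks and the library totals), 2 had a library far from the others; chance alone gives about 1 in 20. At the Sesn1 peak at chr10:41868002-41868330, Flcn KO replicate 3 had 3.98 CPM, below the 5.33 to 5.47 CPM of the other Flcn KO libraries and inside the WT range. At the weak peak 7780 bp from Ddit4, Flcn KO replicate 2 had 3.21 CPM, above the 0.497 to 0.782 CPM of the others.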

How the results depend on the processing

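The median log2 change of all peaks stayed between −0.0025 and 0.0095 under the settings run. Of 369 single values under alternatives, 345 kept their direction and side of the threshold, 12 lost a call and 12 changed sign. The sign changes were at promoters near 0: under limma-voom for Eif4ebp2 (−0.0071), and when single libraries were left out for Eif4ebp2 (−0.041 to 0.047), Mtor (−0.032 to 0.076), Rheb (−0.017 to 0.088), Mios (−0.029 to 0.077) and Sesn3 (−0.018 to 0.112). Member peaks came to 1 higher and 1 lower, with 0 lower under limma-voom (log2 change of the Sesn3 upstream peak −0.63) or a maximum distance of 10 kb, and 0 in both directions when only peaks inside or touching the gene were assigned. Leaving out single libraries gave 0 to 1 in each direction for the members and 3 to 4 higher and 0 to 1 lower in the wider list. The wider list had 2 higher and 0 lower peaks with the stricter filter or halved counts, 0 lower under limma-voom and 2 lower with no filter; the stricter filter and halving left the Lpin1 peak, the Prr5l peak and 1 Fnip2 peak untested, and the other causes were not tested. Over all peaks the stricter filter gave 282 lower. Leaving out single libraries gave 420 to 863 higher peaks (lowest without Flcn KO replicate 3) and 217 to 934 lower (lowest without WT replicate 2, highest without Flcn KO replicate 1). For gene sums it gave 102 to 284 higher and 38 to 277 lower over all genes, 0 to 0 in the members, and 1 to 2 higher and 0 lower in the wider list. Replicate numbers showed no clear pairing: same-numbered libraries' deviations correlated at −0.05 to 0.08 and other pairs at −0.15 to 0.17. Of the Flcn KO libraries, 1 of 4 correlated best with its own number. So few pairs cannot exclude a batch shared by same-numbered libraries. With the replicate block 736 peaks were higher and 639 lower, against 644 and 489 without it, and the members again had 1 and 1. Depth limits the weak peaks: the 12 untested member peaks averaged at most 2.18 CPM.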
